A study of Danio rerio with 20 samples.

Results

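A small set of array probes read opposite ways in *rnaset2* mutant zebrafish at 3 dpf and in mutant adult brain. Of the 43603 probes with deposited values, 136 made up this set. The members were chosen on their own values. A member had a mean log2 difference between mutants and WT siblings of at least 1 in size, that is at least 2-fold, at 3 dpf and in adult brain, with opposite signs. Its mutant and WT arrays did not overlap at either stage, and its mean intensity reached at least 50 in the brighter genotype at both stages. Of the members, 81 were higher in mutants at 3 dpf and lower in mutant brain, and they are called larva-high here. The other 55 were lower in mutants at 3 dpf and higher in mutant brain, and they are called brain-high. Both names give the stage at which mutants exceeded WT siblings, and not how bright a probe was at that stage. The 3 dpf and brain values below are therefore descriptions without a test. Tests were made of the 28 hpf differences, which played no part in the choice. In the main fit their error also takes in the spread of the 3 dpf and brain arrays.

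The arrays were 20 one-colour Agilent zebrafish arrays. Mutants carried the ENU-generated AO127 allele of *rnaset2*, and the controls were WT siblings. Whole embryos were pooled at 28 hpf (4 mutant and 4 WT samples) and at 3 dpf (3 and 3), and whole brains were dissected from fish 1 year old (3 and 3). All mutants carried this 1 allele, and it is not stated which arrays share a clutch or a fish. The p-values thus cover no more than the spread among these arrays, part of which may be technical. Both genotypes at 28 hpf have samples numbered 1 and 1.1. They were kept apart because their difference was close to that of other pairs, though it was the smallest in both genotypes. The labels do not say whether samples 1 and 1.1 repeat 1 pool, and the tests count them as separate arrays.

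The *rnaset2* gene encodes a ribonuclease of the lysosome, the compartment where cells digest RNA and other material they have taken up. In the brain much of this digestion falls to microglia, the resident phagocytes, and loss of the human enzyme causes a leukoencephalopathy of early childhood. RNA of a whole larva comes from muscle, gut, skin, blood, eye and nervous system together, while RNA of a dissected brain comes mainly from neurons and glia. A probe reports the level of its transcript in RNA of all that tissue, relative to other probes after normalization. Fewer cells of a type and less RNA per cell cannot be told apart in that level. The tables used here do not pair probes with genes. For this reason the members carry no gene name, their roles and sequences are not given, tissue markers and the *rnaset2* transcript itself were not checked, and probes of 1 gene are counted separately. Only 4 probes are named, which are the 2 of each direction with the largest value of the smaller of the 2 differences.

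Probes with opposite signs were the smaller part of those that passed the thresholds at both stages. Among 712 such probes, 576 had the same sign at 3 dpf and in brain (251 above and 325 below WT in mutants), and the 136 members were 19.1%. Taken by stage, the same thresholds were passed by 6.17% of all probes in the direction higher in mutants at 3 dpf and by 4.20% lower. In adult brain they were passed by 3.16% higher and 2.37% lower. These are counts that the rule fixes, and they are not read as evidence.

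The larva-high effects were large and uneven. At 3 dpf the 81 probes were higher in mutants by a median log2 difference of 2.1 (quartiles 1.5 and 3.36, highest 8.29), and 24 of them were at least 8-fold higher. In brain they were lower by a median of -1.42 (quartiles -1.99 and -1.20, lowest -6.03), and 13 were at least 8-fold lower. Many of these values were dim, with a mutant brain mean under 50 in 41 probes and under 10 in 4. On log2 of the intensity plus 50, which damps differences among dim values, the medians were 1.60 at 3 dpf and -0.95 in brain, and 44 of the 81 were below 2-fold in brain and 20 at 3 dpf. The 3 dpf difference was the larger of the 2 in 57 probes and the brain difference in 24. Both differences reached 4-fold in 15 probes and 8-fold in 8.

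The brain-high effects were smaller and more even. Their median log2 difference was -1.24 at 3 dpf (quartiles -1.58 and -1.10, lowest -3.76) and 1.34 in brain (quartiles 1.14 and 1.70, highest 3.73). In brain 3 probes were at least 8-fold higher in mutants, with dim WT brain means of 5.75, 4.01 and 13.8. The mutant brain means of these probes were 87.0, 52.4 and 181, with SDs of 90.5, 45.7 and 165. The brain difference was the larger in 33 probes and the 3 dpf difference in 22. Both differences reached 1.5 on the log2 scale in 7 of the 55 probes, against 31 of the 81 larva-high probes, and both reached 4-fold in 0. On log2 of the intensity plus 50 the medians were -1.07 and 1.03, and 17 of the 55 were below 2-fold at 3 dpf and 22 in brain.

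Probes lay close to the thresholds on both sides, with members inside and other probes outside. The 3 larva-high probes closest to the limit had smaller differences of 1.01, 1.01 and 1.01, and the 3 probes just outside had 0.99, 0.99 and 0.99. For brain-high probes the values were 1.00, 1.00 and 1.01 inside and 1.00, 0.99 and 0.99 outside. The dimmest brighter-genotype means inside the intensity limit were 50.01 for larva-high and 51.6 for brain-high probes, and the nearest outside were 47.7 in both. Only the intensity limit kept out 56 further larva-high and 46 further brain-high probes. Only the condition on overlap kept out 56 and 12. Of the 56, 54 overlapped in adult brain and 2 at 3 dpf.

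The probe with the most extreme larva-high pattern was A_15_P728776. At 3 dpf its intensity was 92718, 109655 and 101780 on the 3 mutant arrays and 2313, 2038 and 2765 on the 3 WT arrays. The groups were far apart and tight, and the log2 difference was 5.43, or 43.0-fold. In adult brain the mutant arrays read 7.58, 2.72 and 3.19, close to the lowest intensity of any array, 2.14. The WT brains read 11.3, 450 and 2132, which is a 188-fold range within 1 group.

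The log2 difference of A_15_P728776 in brain, -5.78, therefore hides 3 unlike WT brains. WT brain replicate 1 lay just above the mutant brains, and replicates 2 and 3 lay far above them. Without WT brain replicate 1 the difference was -7.92, and without replicate 3 it was -4.14. On log2 of the intensity plus 50 it was -2.90 in brain and 5.40 at 3 dpf.

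At 28 hpf A_15_P728776 was dim in both genotypes, at 13.0, 12.1, 8.84 and 17.6 in mutants and 13.6, 15.9, 11.4 and 10.1 in WT siblings. The groups overlapped, and the log2 difference was -0.0028 (standard error 1.01, adjusted p = 0.999 from limma). This standard error takes in the spread between brains, and with the 28 hpf arrays fitted alone it was 0.22.

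A_15_P747151 had nearly the same profile. Its 3 dpf intensities were 100459, 107505 and 112934 in mutants and 2531, 2090 and 2937 in WT siblings, a log2 difference of 5.42. In brain the mutants read 7.80, 2.40 and 2.60 and the WT siblings 11.8, 515 and 2220, a difference of -6.03. Again WT brain replicate 1 was the dim one and replicate 3 the bright one, and without them in turn the difference was -8.19 and -4.42. On log2 of the intensity plus 50 the brain difference was -2.99. At 28 hpf it read 15.4, 16.5, 17.2 and 22.1 in mutants and 23.5, 12.6, 21.4 and 14.7 in WT siblings, overlapping, with a log2 difference of 0.013 (adjusted p = 0.995 from limma). Whether this probe and A_15_P728776 measure 1 gene is not known here.

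The clearest brain-high probe was A_15_P664221. At 3 dpf it read 42.1, 38.0 and 37.9 in mutants and 155, 185 and 199 in WT siblings, a log2 difference of -2.19. In brain it read 1127, 955 and 1255 in mutants and 304, 284 and 330 in WT siblings, a difference of 1.86. On log2 of the intensity plus 50 the differences were -1.36 and 1.70. Both contrasts were several times the spread within a group, and leaving out any brain array kept the brain difference between 1.76 and 1.96. At 28 hpf mutants read 386, 414, 388 and 484 and WT siblings 441, 431, 489 and 493. These values overlapped, and the log2 difference was -0.15 (standard error 0.100, adjusted p = 0.26 from limma, exact two-sided permutation p = 0.11).

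A_15_P106583 was bright in embryos and dim in brain. At 3 dpf it read 12387, 9821 and 20362 in mutants and 180628, 203119 and 169339 in WT siblings, a log2 difference of -3.76. In brain it read 802, 94.9 and 93.0 in mutants and 87.1, 58.8 and 41.6 in WT siblings. Mutant brain replicate 1 was far above the others, and the closest arrays of the genotypes were 93.0 and 87.1. On log2 of the intensity plus 50 the differences were -3.76 at 3 dpf and 1.23 in brain. The brain difference of 1.68 was 0.65 without mutant brain replicate 1, which is below the limit of the rule, so 1 array decided its membership.

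At 28 hpf A_15_P106583 read 310508, 312628, 350351 and 365001 in mutants and 390881, 412275, 394714 and 401646 in WT siblings. All mutant arrays lay below all WT arrays, as in 20.4% of all probes. Any probe without overlap gives the permutation p below, which is not adjusted for the number of probes. The log2 difference was -0.26 (standard error 0.49, adjusted p = 0.73 from limma; exact two-sided permutation p = 0.029, the smallest that 4 against 4 arrays can give). With the 28 hpf arrays fitted alone the standard error was 0.062 and the adjusted p = 0.011 from limma.

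The uneven brains of the 2 larva-high examples recurred in other members. A range of at least 4-fold between the 3 brains of 1 genotype was found in 19 of the 81 larva-high probes (23.5%) and in 7 of the 55 brain-high probes (12.7%). It was found in 4.49% of all probes, and in 10.4% and 11.4% of the probes higher and lower in mutants at both stages. Some of these ranges in members rest on arrays close to the lowest intensity, and the sets were not matched for brightness. At 3 dpf 0 of the members had such a range in either genotype. Among the 9 larva-high probes with this range in WT brain, WT replicate 1 was the dimmest in 7 and replicate 3 the brightest in 7. Among the 10 with this range in mutant brain, replicates 1 and 3 were the brightest in 4 and 5.

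A wide range in 1 genotype without overlap moves the brain means apart, so the brain values below are in part fixed by the rule. The condition on overlap in brain does not fix the 3 dpf values, which chose the members in their own right. The median log2 difference of these 19 larva-high probes was 5.42 at 3 dpf and -3.28 in brain, against 1.83 and -1.31 for the 62 probes with a narrower range. A brain difference of at least 4-fold was reached by 13 of the 19 and by 6 of the 62.

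The distance between the genotypes is described here on the same values that chose the members. The gap between the nearest mutant and WT arrays had a median of 1.64 (log2) at 3 dpf and 0.63 in brain for larva-high probes, and the narrowest brain gap was 0.0034. For brain-high probes the medians were 1.02 and 0.87, and the narrowest brain gap was 0.039. When each array of a stage was left out in turn, the difference stayed at 2-fold or more in 72 of 81 larva-high probes at 3 dpf and in 57 in brain. For brain-high probes these numbers were 46 and 37 of 55. The within-group SD of log2 intensity had a median over larva-high probes of 0.37 in WT and 0.34 in mutant brain, against 0.16 and 0.14 over all probes, and 0.16 and 0.13 at 3 dpf.

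Of the adult brains, WT replicate 1 resembled the embryos most, with a mean Pearson's r of 0.793 with the embryo arrays over all probes against 0.777 to 0.786 for the other 5. It was the brightest WT brain in 30 of the 81 larva-high probes and the dimmest in 34. Without it the median brain difference was -1.42 for larva-high and 1.34 for brain-high probes, both as with it. The rule then took 92 and 64 probes, of which 72 and 51 were among the members.

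The levels over the 6 conditions are described here, and the rule fixes part of their order. In larva-high probes neither 3 dpf WT nor mutant brain could be the brightest, and neither 3 dpf mutants nor WT brain the dimmest. In larva-high probes the brightest of the 6 conditions was the 3 dpf mutants in 54 of 81 and WT brain in 21. The median intensity over these probes was 760 in 3 dpf mutants, 124 in 3 dpf WT, 196 in WT brain, 49.5 in mutant brain, and 54.4 and 54.3 in 28 hpf mutants and WT. The dimmest condition was mutant brain in 36 probes and one of the 28 hpf groups in 39.

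On single arrays the larva-high median was 728 to 806 in the 3 dpf mutants and 120 to 130 in 3 dpf WT, and in brain 164 to 189 in WT and 41.2 to 57.9 in mutants. Neither stage showed overlap, as the choice of members fixes. At 28 hpf the median was 46.5 to 52.2 in mutants and 49.5 to 55.9 in WT, which overlapped.

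By median intensity, brain-high probes were signals of embryos more than of brain, though single probes such as A_15_P664221 were brightest in mutant brain. Their median intensity was 1064 in WT and 1041 in mutants at 28 hpf, and 905 in 3 dpf WT. It was 332 in 3 dpf mutants, 330 in mutant brain and 128 in WT brain. WT brain was the dimmest condition in 41 of 55 probes, and a 28 hpf group was the brightest in 32. In this direction the rule lets neither 3 dpf WT nor mutant brain be the dimmest, and neither 3 dpf mutants nor WT brain the brightest. On single arrays the median was 837 to 902 in 3 dpf WT and 333 to 358 in 3 dpf mutants, and 89.0 to 143 in WT brain and 277 to 362 in mutant brain.

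The order of the stages turned between genotypes in part of the members. Among larva-high probes, 34 of 81 were brighter in brain than at 3 dpf in WT siblings and the other way round in mutants. A further 33 were brighter at 3 dpf in both genotypes and 14 brighter in brain in both. Among brain-high probes 16 of 55 turned, from brighter at 3 dpf in WT to brighter in brain in mutants, while 31 were brighter at 3 dpf in both and 8 brighter in brain in both. Opposite genotype differences at the 2 stages move the stage difference of mutants away from that of WT siblings by construction, so some turning follows from the rule.

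Relative to 28 hpf, the larva-high probes stood higher at 3 dpf in 74 of 81 in mutants and in 60 in WT siblings, by a median log2 difference of 3.28 and 1.25. The brain-high probes stood lower at 3 dpf in most cases, with 9 of 55 above 28 hpf in mutants and 19 in WT siblings, and median differences of -1.56 and -0.49. In both directions the 3 dpf mutants were the farther from 28 hpf, in 72 of 81 and in 41 of 55 probes, measured from the mean of both 28 hpf genotypes. The 3 dpf arrays chose the members, so no test was made.

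At 28 hpf, the stage outside the rule, larva-high probes were called in both directions. In limma over all 20 arrays, with Benjamini-Hochberg adjustment over 43603 probes and a threshold of 0.05, 12 of the 81 were higher in mutants (14.8%), where 18.7% of all probes were. Lower in mutants were 17 (21.0%), where 15.8% of all probes were. The remaining 52 did not pass the test, and the median log2 difference was -0.041 against 0.0095 over all probes. The fit over all 20 arrays takes the spread between brains into the error of the 28 hpf test. The median within-group SD over larva-high probes was 0.37 in WT and 0.34 in mutant brain, against 0.16 and 0.14 over all probes. The test thus tended to be less sensitive for larva-high probes than for all probes. With the 28 hpf arrays fitted alone, 15 of the 81 were higher and 25 lower. Of all probes, 22.9% and 20.5% were. All 4 mutant arrays lay below all 4 WT arrays in 24 larva-high probes (29.6%, against 20.4% of all probes) and above them in 16 (19.8%, against 22.7%).

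Brain-high probes leaned towards lower values in 28 hpf mutants, the sign they had at 3 dpf. Larva-high probes also had more calls lower (17) than higher (12), which was not their sign at 3 dpf. Of the 55, 19 were lower (34.5%, against 15.8% of all probes) and 9 were higher (16.4%, against 18.7%), and 27 did not pass. Their median log2 difference was -0.22, with quartiles of -0.70 and 0.068. All 4 mutant arrays lay below all 4 WT arrays in 28 brain-high probes (50.9%, against 20.4% of all probes) and above them in 10 (18.2%, against 22.7%).

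Brightness at 28 hpf differed between the directions. A mean of at least 50 in the brighter genotype at 28 hpf was found in 51 of 55 brain-high but in 45 of 81 larva-high probes. Among probes of that brightness, 22.6% of all were called higher and 19.3% lower in a fit of those probes alone, which called 9 brain-high probes higher and 18 lower. For larva-high probes the same fit gave 10 and 12. With the 28 hpf arrays fitted alone, 15 larva-high probes were higher and 25 lower, and 9 brain-high probes were higher and 27 lower, with 22.9% and 20.5% of all probes called.

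Larger differences at 28 hpf ran both ways in larva-high and mostly down in brain-high probes. Regardless of the test, 10 larva-high probes were at least 2-fold higher in mutants and 8 at least 2-fold lower, against 2.89% and 2.84% of all probes, and 1 and 8 brain-high probes were. Called and at least 2-fold higher were 9 larva-high probes (11.1%), and 7 were called and at least 2-fold lower (8.64%), against 2.57% and 2.44% of all probes. Among brain-high probes, 1 was called and at least 2-fold higher (1.82%) and 8 lower (14.5%). The 28 hpf log2 differences lay between -1.58 and 1.82 in larva-high and between -2.19 and 1.38 in brain-high probes.

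Probes with 1 sign at both later stages had mostly that sign at 28 hpf as well. Over all probes, 18.7% were called higher and 15.8% lower at 28 hpf. Of the 251 probes higher in mutants at 3 dpf and in brain, 156 were called higher at 28 hpf (62.2%) and 18 lower (7.17%). Of the 325 lower at both, 201 were called lower (61.8%) and 15 higher (4.62%). Their median log2 differences at 28 hpf were 0.67 and -0.66. In the members, calls with the sign of 3 dpf numbered 12 of 81 (14.8%, against 18.7% of all probes) and 19 of 55 (34.5%, against 15.8%). Calls with the sign of brain numbered 17 of 81 (21.0%, against 15.8%) and 9 of 55 (16.4%, against 18.7%). All these calls come from the fit over all arrays, whose error takes in the spread between brains. That spread was wider in members of both directions than over all probes. The difference between these sets was not tested.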

How the data were processed

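RNA was measured on one-colour (Cy3) Agilent Zebrafish (v3) arrays. The intensities deposited by the authors are linear and had been quantile normalized over the 20 arrays. The submitters' processing notes name danRer11, the build used in the study to re-annotate probes. For scanner software, background correction and slide nothing is given in the sources used here. Which dim probes exceed background is therefore unknown, and precision is limited by how many arrays there are. Intensities were log2-transformed without a filter. Members were found by the rule on group means. The 28 hpf effect came from limma 3.58.1 under R 4.3.3, in 1 model of 6 group means for the 20 arrays (14 residual and 1.79 prior degrees of freedom), two-sided, with Benjamini-Hochberg adjustment over 43603 probes and a threshold of 0.05. The fit was tested on simulated data in which each probe had the same spread in all groups. The wider spread between brains was therefore not covered by that test. The named probes were those 2 per direction with the largest value of the smaller difference; a plan for genes was not applied, since probes carry no gene name here. Samples 1 and 1.1 at 28 hpf differed by an SD of log2 differences of 0.325 (mutants) and 0.389 (WT), against 0.337 to 0.398 and 0.392 to 0.457 for other pairs. The members and the rule were chosen with earlier results of these data known, and no gene list entered the results.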

Additional observations from a re-analysis of the deposited data

How the results depend on the processing

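The number of members depended on the rule's limits. With a difference of at least 1.5-fold it took 261 larva-high and 364 brain-high probes, and with 4-fold 15 and 0. Without an intensity minimum it took 137 and 101, with a minimum of 200 31 and 27, and on log2 of the intensity plus 50 30 and 26. Without the condition on overlap it took 137 and 67. Leaving out each 3 dpf or brain array in turn gave 77 to 117 and 51 to 67 probes. Median scaling gave 80 and 55 and quantile normalization within stages 81 and 55. At 28 hpf, requiring also 1.5-fold left 3 brain-high probes called higher, where 6.05% of all probes were. All other settings kept the 4 counts of calls within 1.5 times, but the shares of all probes called moved as well. These shares were 13.6% higher and 11.8% lower with samples 1 and 1.1 averaged, and 27.2% and 23.5% with array weights. With samples 1 and 1.1 averaged, 13 larva-high probes were called higher and 14 lower, and 7 and 15 brain-high probes were. Leaving out each 28 hpf array gave 12 to 14 larva-high calls higher and 14 to 16 lower, and 7 to 8 and 16 to 18 brain-high. Of all probes, 15.6% to 17.6% were then higher and 13.4% to 14.8% lower. With a replicate block the 4 counts were 12, 16, 8 and 19, with 16.5% and 14.3% of all probes called. Same-numbered mutant and WT arrays had correlations of deviations from -0.058 to 0.023. The own-number WT array was the closest match for 1 of 10 mutant arrays, and the numbers were not taken as pairs. The 28 hpf differences of both larva-high named probes are near 0, and their sign turned. For A_15_P728776 the difference was 0.072 with samples 1 and 1.1 averaged, 0.0029 on log2 of the intensity plus 50 and -0.17 to 0.16 without each array (0.014 without mutant and 0.11 without WT replicate 1.1). For A_15_P747151 it was -0.0032 on log2 of the intensity plus 50, -0.012 with array weights, chosen for it after seeing the data, and -0.14 to 0.16 without each array (-0.097 without mutant replicate 3).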
